A study of Homo sapiens with 9 samples.

Results

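OCI-Ly1 is a human cell line of diffuse large B-cell lymphoma, and the cells described here are its control cells, which were made to express a non-targeted control shRNA labelled shSCR. They are represented by 3 of the 9 libraries in the series, chosen by their sample titles and the matching columns of the count table. The other 6 libraries carried shRNAs against the histone demethylase LSD1 and are not used here. The shRNAs were in the pLKO1 vector, and cells carrying it were selected with puromycin, so the control cells too carry the vector and have been through the drug. Cells grew in IMDM with 10% FBS and antibiotics, RNA was extracted with TRIzol, and polyadenylated RNA was sequenced from biological triplicates. All replicates come from 1 line, so the spread between them is that of cultures and not of patients. There is no untreated OCI-Ly1 library among those used, so nothing here separates the line's own RNA from an effect of vector or selection.

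Levels are given in 2 units. CPM is the reads of a gene per 1000000 reads of its library and depends on the gene's length. TPM divides the reads by the length of the gene's exons before scaling each library to a sum of 1000000. It is used wherever genes are compared with each other, so such ratios depend on the lengths taken. Where 3 values stand in a row they are replicates 1, 2 and 3, and ± is the SD over these 3 libraries. A level of 10 TPM is used as a landmark for counting list members: 44.3% of the 19368 genes with a length reached it, and the median gene lay at 5.47 TPM. Among coding genes 49.9% reached it and the median was 9.95 TPM. No list was tested against other genes, and counts are descriptions of these libraries.

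In the germinal centre, B cells that have met antigen divide fast and mutate their antibody genes, and the repressor BCL6 holds back the genes of plasma cells and of exit from this state. Diffuse large B-cell lymphomas are commonly split into a germinal-centre type, whose RNA resembles these cells, and an activated type, with NF-kB activity and a partial plasma cell program led by IRF4. B-cell identity itself rests on PAX5, EBF1 and TCF3, and B cells sense antigen through surface immunoglobulin coupled to the CD79A and CD79B chains.

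The libraries held 32835510, 29506767 and 31726959 counted reads. Mitochondrially encoded genes took 5.16, 5.21 and 5.33% of them and the 84 cytosolic ribosomal protein genes 4.38, 4.45 and 4.24%. A gene with 0 reads over all 3 libraries could still be present at up to 0.0319 CPM, the level of 3 reads in the 94069236 reads summed. Such limits cover counting error only. No strand setting is given, and 73 of the 447 list genes share at least 10% of their exon length with an exon of another gene on either strand. Reads there may have been left out or given to the other gene, and the share is stated beside the genes it touches most.

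Most genes that mark B cells were high. Of 23 pan-B cell genes, 21 were at 10 TPM or more, and the list median was 169 TPM. This and the other lists were chosen with earlier results of these data known. Counts of their members are therefore no check of the B-cell label. Both signal chains of the B-cell receptor stood at the top of the list. CD79B (chromosome 17, 63928740 to 63932331) was at 1789, 1819 and 1707 TPM. CD79A (chromosome 19, 41877279 to 41881372) was at 1680.2, 1699 and 1546 TPM. The ratio of CD79B to CD79A was 1.08 (1.06 to 1.1 over the libraries), and although the levels lie close, CD79B was the higher chain in every library. Next came VPREB3, a surrogate light chain relative kept in mature B cells, at 1136 ± 58.4 TPM, and POU2AF1, the B-cell coactivator that works with octamer factors, at 903 ± 20.7 TPM.

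Surface antigens that identify B cells differed widely in level. MS4A1, which encodes CD20 (chromosome 11, 60455847 to 60470752), was at 734, 711 and 748 TPM. CD22, an inhibitory lectin of the receptor complex, was at 583 ± 6.35 TPM, CD37 at 356 ± 7.29 TPM and CD72 at 93.0 ± 2.18 TPM. FCRLA (602 ± 22.6 TPM) and CD22 lay next to each other in the order and their libraries overlapped.

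The members of the pan-B list under 10 TPM were CIITA and CR2. CIITA, the master coactivator of MHC class II genes, was at 9.83, 8.03 and 8.94 TPM, just under the landmark. Its TPM rests on an exon length of 20757 bases, of which 23.4% is shared with other genes. By reads CIITA was not low, at 53.8, 44.1 and 49.0 CPM, above the mean of 22.9 CPM of TNFRSF13C. CR2, the complement receptor CD21 of mature naive and marginal zone cells, was at 0.142, 0.105 and 0.0732 TPM with 6, 4 and 3 reads. It was the lowest member of the list in every library, and the next member up, CIITA, did not overlap it. TNFRSF13C, the BAFF receptor, was also among the lower members at 22.0 ± 0.986 TPM. Immunoglobulin heavy and light chain genes were not analysed here.

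**Figure D1:**
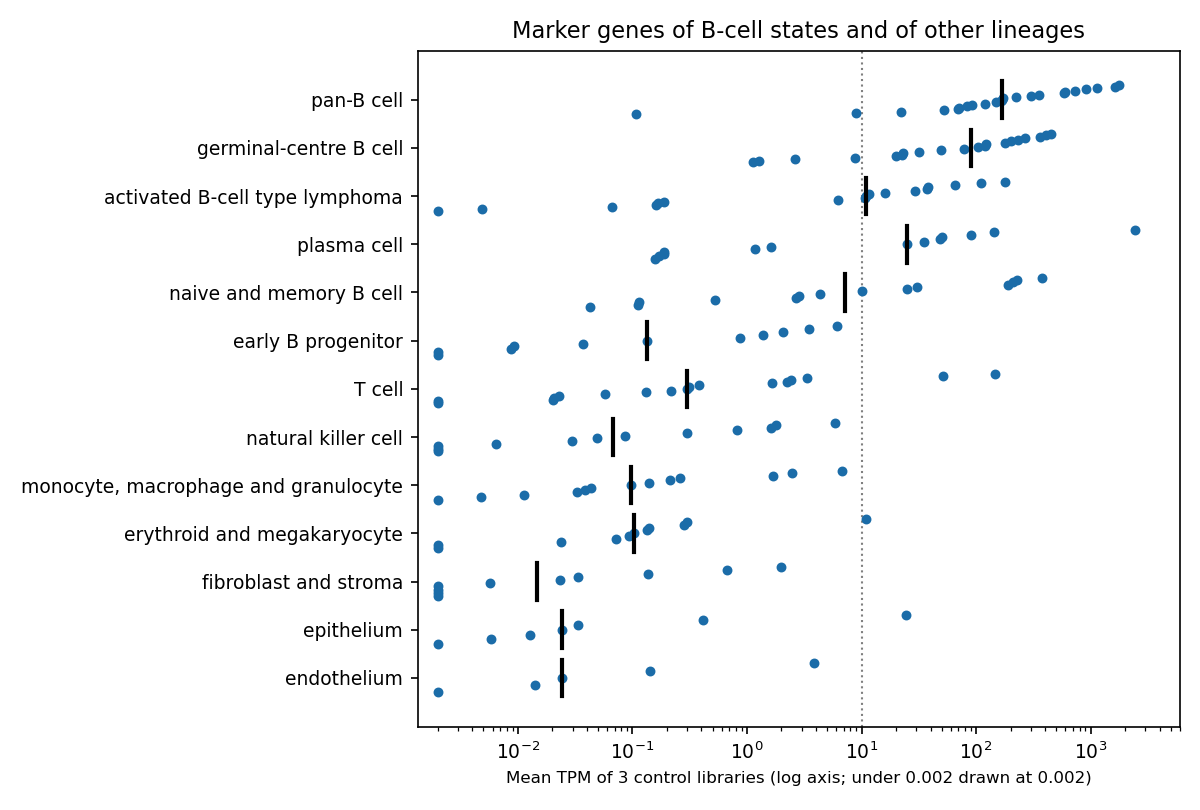
Each point is the mean TPM of 1 gene over the 3 control libraries (log axis), in rows by marker list, with the list median as a black bar and 10 TPM as a dotted line. The pan-B cell (median 169 TPM) and germinal-centre (91.1 TPM) lists lie far to the right of the T cell, natural killer, myeloid, erythroid and tissue lists, whose medians are all under 1 TPM.

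Germinal-centre genes were also high. Of the 20 measured members, 16 reached 10 TPM, all 20 had a mean of at least 1 TPM, and the median was 91.1 TPM. STAP1, a B-cell adaptor protein, led with 435, 454 and 460.4 TPM. BCL6 (chromosome 3, 187721377 to 187745468) followed with 413, 412 and 400.0 TPM, and the lowest STAP1 library lay above the highest BCL6 library. MME, which encodes CD10, the surface peptidase used to assign the germinal-centre type in diagnosis, was at 266 ± 4.84 TPM. RGS13, a regulator of chemokine receptor signalling, was at 233 ± 12.6 TPM. GNA13 and S1PR2, the G protein and the receptor that keep these cells inside the follicle, were at 202 ± 4.62 and 78.5 ± 1.97 TPM. ELL3 was at 365 ± 5.4 TPM, with 69.2% of its exon length shared with other annotated genes.

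Other members of the germinal-centre list were low. SERPINA9, a protease inhibitor often used as a marker of this state, was at 8.26, 9.31 and 8.85 TPM. The ratio of MME to SERPINA9 was 30.2 (29.1 to 32.1 over the libraries), so these markers of the same state stood more than an order of magnitude apart. LMO2, a transcriptional adaptor used in the same diagnostic setting, was at 2.56, 3.26 and 2.11 TPM. MEF2B was at 1.26 ± 0.171 TPM, but 73.9% of its exon length is shared with a readthrough gene, so its own level is uncertain. P2RY8 was not analysed here.

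Genes of the activated lymphoma type were split. Of 17, 10 reached 10 TPM and 6 were under 1 TPM, and the median was 11.0 TPM. The share at 10 TPM, 58.8%, was near the 49.9% of all coding genes, so it marks no trait of this list. The kinase genes PIM1 (179 ± 4.36 TPM) and PIM2 (111 ± 4.69 TPM) and the phosphatase gene PTPN1 (65.3 ± 0.704 TPM) were the highest. RAB29 (29.4 ± 1.85 TPM), CYB5R2 (15.9 ± 0.414 TPM) and LIMD1 (11.7 ± 0.257 TPM) also passed the landmark. Other members were near the floor. IRF4, which drives plasma cell and activated programs (chromosome 6, 391752 to 411443), had 12, 8 and 8 reads, or 0.235, 0.174 and 0.162 TPM. CCND2, a D-type cyclin, was at 0.113, 0.0179 and 0.0666 TPM. CREB3L2 was at 0.00486 ± 0.00842 TPM and CCDC50 had 0 reads. FOXP1 stood at 10.6 ± 0.322 TPM and the NF-kB linked factor BATF at 6.27 ± 0.762 TPM.

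Of plasma cell genes 7 of 13 (53.8%) were at 10 TPM or more, again near the 49.9% of all coding genes. JCHAIN, which links the subunits of secreted IgM and IgA (chromosome 4, 70655541 to 70666508), was among the most abundant RNAs of the cells. It was at 2404, 2534 and 2430 TPM, rank 24 of all genes with a length. MZB1, a chaperone of antibody assembly, was at 144 ± 6.90 TPM, and XBP1, the factor of the secretory program, at 50.6 ± 1.25 TPM. PRDM1, which encodes BLIMP1, the repressor that ends the B-cell program (chromosome 6, 105992690 to 106109938), was at 0.163, 0.120 and 0.187 TPM. SDC1, which encodes the plasma cell antigen CD138, was at 1.61, 1.96 and 1.26 TPM. The ratio of BCL6 to PRDM1 was 2608 (2144 to 3424 over the libraries), the denominator of which rests on only 9, 6 and 10 reads.

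Naive and memory markers and early progenitor genes completed the picture of the B-cell states. Of 14 naive and memory genes 6 reached 10 TPM. They were TCL1A (373 ± 8.76 TPM), a coactivator of AKT that marks naive and germinal-centre cells, the oxysterol receptor gene GPR183 (227 ± 16 TPM), IL4R (209 ± 4.50 TPM), CD27 (188 ± 8.39 TPM), CCR7 (30.3 ± 2.38 TPM) and AIM2 (25 ± 2.81 TPM), with CD1C, a lipid presenting molecule, at the landmark itself (9.74, 9.11 and 11.1 TPM). FCER2, FCRL4 and KLF2 were each under 1 TPM in every library. None of 11 early progenitor genes reached 10 TPM. IL7R was the highest of them at 6.10 ± 0.303 TPM, RAG1 and RAG2, the recombinase genes, were at 2.05 ± 0.273 and 0.871 ± 0.288 TPM, and DNTT and ERG had 0 reads.

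Markers of other lineages lay near the floor of detection, with a few exceptions. No natural killer gene of 12 measured, no myeloid gene of 13, no stromal gene of 10 and no endothelial gene of 5 reached 10 TPM. Their medians were 0.0676, 0.0972, 0.0146 and 0.0241 TPM. The T cell list had a median of 0.299 TPM. Among its defining members CD3D was at 0.218 ± 0.0786 TPM, CD3E at 0.0571 ± 0.0497 TPM and CD3G at 0.0204 ± 0.0177 TPM, and CD28 and CD8B had 0 reads. LYZ and FCGR3A of the myeloid and natural killer lists, TAL1 of the erythroid list, KRT19 of the epithelial list and COL1A2, LUM, PDGFRA and THY1 of the stromal list had 0 reads as well. In RNA from bulk cultures, fewer cells of a type and less RNA per cell cannot be told apart.

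The exceptions appeared in every library. EPOR, of the erythroid list, had a mean of 11.0 TPM and was its only measured member at 10 TPM or more. LCK, a SRC-family kinase best known from T cell receptor signalling (chromosome 1, 32251265 to 32286165), was at 148, 149.6 and 137 TPM. CD247, the zeta chain of the T cell receptor complex, was at 3.31 ± 0.504 TPM, so that LCK stood apart from this chain and from the CD3 genes of the same list. EPCAM, an epithelial adhesion molecule (chromosome 2, 47369311 to 47387020), was at 26.8, 24.7 and 22.4 TPM, while the keratin genes KRT8 and KRT18 were at 0.00578 ± 0.0100 and 0.0243 ± 0.0211 TPM. TP63, a p53 relative known from stratified epithelium (chromosome 3, 189596746 to 189897276), was at 47.9, 50.5 and 47.1 TPM and was the only one of 16 measured transcription factors of other lineages above 10 TPM. COL5A1 stood out among 37 collagen genes with 223, 201 and 211 CPM, while the median collagen gene was at 0.0308 CPM.

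Transcription factors of the B lineage were expressed almost as a block. Of 37, 30 were at 10 TPM or more, and the median was 54.3 TPM. The leading members were POU2AF1 (903 TPM), BCL6 (408 TPM), IRF8 (351 ± 12.1 TPM), TCF3 (331 ± 18.8 TPM) and ELF1 (293 ± 2.18 TPM). IRF8 and TCF3 overlapped between libraries, while POU2AF1 and BCL6 did not overlap their neighbours. PAX5, the keeper of B-cell identity (chromosome 9, 36833269 to 37034268), was at 223, 228 and 214 TPM. It could not be separated from IKZF3 (219.9 ± 2.34 TPM) by its libraries, and IKZF3 in turn overlapped ETS1 (218 ± 3.30 TPM). EBF1, which acts with PAX5 from the earliest B-cell stage, was lower at 78.8, 86.4 and 84.1 TPM.

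Among related factors the balance was often uneven. TCF3 exceeded TCF4, another E protein, by a ratio of 7.81 (7.39 to 8.48 over the libraries). The exon lengths used were 6080 bases for TCF3 and 27828 for TCF4, so the ratio by reads was smaller. SPI1 and SPIB, the ETS factors PU.1 and SPI-B, were close, with a ratio of 1.12 (1.08 to 1.14 over the libraries). POU2F1 and POU2F2, the octamer factors OCT1 and OCT2, were also close, with a ratio of 1.15 (1.12 to 1.22 over the libraries). IKZF1 was below IKZF3 in every library, at a ratio of 0.655 (0.646 to 0.669 over the libraries). The inhibitors ID2 and ID3, which bind E proteins and keep them off DNA, were at 143 ± 7.42 and 109 ± 4.67 TPM.

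The lowest B-lineage factors were KLF2, PRDM1 and IRF4. KLF2, a quiescence factor of naive cells, had 0, 2 and 0 reads, and its libraries overlapped those of PRDM1, which in turn overlapped IRF4. IRF8 stood above IRF4, its closest relative, by a ratio of 1846 (1552 to 2141 over the libraries). All 3 lay under 1 TPM in every library, and the next factor up, MEF2B, did not overlap IRF4.

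Signal-dependent factors differed in level within each family. All 5 NF-kB subunits were above 10 TPM, in the order REL (119 ± 3.42 TPM), RELA (72.0 ± 3.15 TPM), NFKB1 (58.3 ± 1.26 TPM), RELB (31.2 ± 0.640 TPM) and NFKB2 (15.7 ± 0.982 TPM), and no neighbours in that order overlapped. REL shares 43.3% of its exon length with another annotated gene. Of the STAT family, STAT6, the transducer of interleukin 4, was at 214, 204 and 215 TPM. STAT6 exceeded STAT3 by a ratio of 10.8 (10.2 to 11.1 over the libraries), and STAT5B exceeded STAT5A by 21.7 (20.5 to 22.6 over the libraries). STAT4 had 1, 0 and 0 reads. Of 9 interferon regulatory factors, IRF8 was the highest and IRF2 (96.7 ± 0.603 TPM), IRF9 (80.3 ± 1.11 TPM, 48.4% of its exon length shared) and IRF3 (71.9 ± 2.46 TPM) came next, while IRF4 was under 1 TPM.

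All 24 genes of B-cell receptor signalling were above 10 TPM, with a median of 119 TPM. Of the kinases, SYK, which docks on the CD79 chains, was the highest at 894, 898 and 878 TPM. LYN (190.1 ± 0.410 TPM) and BTK (169 ± 3.02 TPM) lay below it, and the libraries of BTK overlapped those of VAV1 (171 ± 0.814 TPM), an exchange factor. PLCG2, the phospholipase that turns receptor signals into calcium flux, was at 298, 299 and 298 TPM, with almost no spread. The adaptor BLNK was at 71.6 ± 3.03 TPM. BCL10 (16.9 ± 0.225 TPM) and MALT1 (11.7 ± 0.717 TPM), which link the receptor to NF-kB, were the lowest members, followed by the kinase gene PRKCB (20.9 ± 0.437 TPM). Inhibitory members were present too, with INPP5D, which encodes the phosphatase SHIP1, at 88.7 ± 2.91 TPM, PTPN6 at 55.5 ± 1.44 TPM and the Fc receptor FCGR2B at 65.6 ± 2.30 TPM.

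Receptors of the tumour necrosis factor family were expressed selectively. Of 20, 6 reached 10 TPM (30%, against 49.9% of all coding genes) and 11 were under 1 TPM. CD27, a costimulatory receptor, was the highest at 191, 195 and 179 TPM, with 39.1% of its exon length shared with other genes, mostly an antisense gene. CD40, the receptor for T cell help (chromosome 20, 46118314 to 46129858), was at 91.0, 98.4 and 96.3 TPM. TNFRSF10B and TNFRSF10A, the death receptors for TRAIL, were at 74.5 ± 5.14 and 39.1 ± 1.53 TPM. Of the receptors for BAFF and APRIL, TNFRSF17 (BCMA) was at 35.1 ± 1.70 TPM, TNFRSF13C (the BAFF receptor) at 22.0 ± 0.986 TPM and TNFRSF13B (TACI) at 0.163, 0.217 and 0.101 TPM. FAS, another death receptor, was at 8.81 ± 0.342 TPM, and the receptors for tumour necrosis factor itself, TNFRSF1A and TNFRSF1B, were at 2.91 ± 0.495 and 0.0650 ± 0.0354 TPM. TNFRSF8, which encodes CD30, had 0, 1 and 0 reads, and LTBR, the lymphotoxin receptor of stromal cells, 2, 1 and 0.

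Among 24 measured cytokine receptor genes, 12 reached 10 TPM (50%, against 49.9% of all coding genes). IL4R (chromosome 16, 27313756 to 27364778) was the highest at 208, 214 and 205 TPM. It exceeded IL21R, which receives the other main cytokine of follicular helper T cells, by a ratio of 8.21 (7.76 to 8.91 over the libraries). IL2RG, the common chain that both use, was at 109 ± 1.83 TPM, although 50.8% of its exon length is shared with another annotated gene. The interferon receptor genes IFNAR1 (67.9 ± 0.395 TPM) and IFNGR1 (46.7 ± 1.41 TPM) were well above IFNGR2 (2.37 ± 0.243 TPM). TGFBR1 and TGFBR2, the receptors for transforming growth factor beta, were at 67.6 ± 1.60 and 60.0 ± 1.47 TPM. IL2RA was at 26.0 ± 0.238 TPM and overlapped IL21R, whereas IL2RB had 4, 1 and 0 reads. IL6R was at 0.984 ± 0.0933 TPM and IL1R1 at 0.00603 ± 0.0104 TPM.

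Receptors that position B cells in lymphoid tissue followed a steep order. CXCR5, which draws B cells into follicles (chromosome 11, 118883892 to 118897787), was at 256, 263 and 239.8 TPM, but 88.6% of its exon length overlaps BCL9L on the opposite strand, so its level depends on how such reads were counted. GPR183 was next at 229, 211 and 242 TPM and overlapped CXCR5. CXCR4, the receptor of the dark zone (chromosome 2, 136114349 to 136118149), was at 112, 106 and 105 TPM. S1PR2, which confines cells to the germinal centre (chromosome 19, 10221433 to 10231331), was at 80.1, 79.1 and 76.3 TPM. S1PR1, which draws lymphocytes out into the circulation, had 1, 0 and 3 reads, against 2524, 2248 and 2331 of S1PR2. CCR7, the receptor for the T cell zone, was at 30.3 ± 2.38 TPM, below CXCR5 by a ratio of 8.35 (7.83 to 8.69 over the libraries). CCR2 and S1PR5 had 0 reads.

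**Figure D2:**
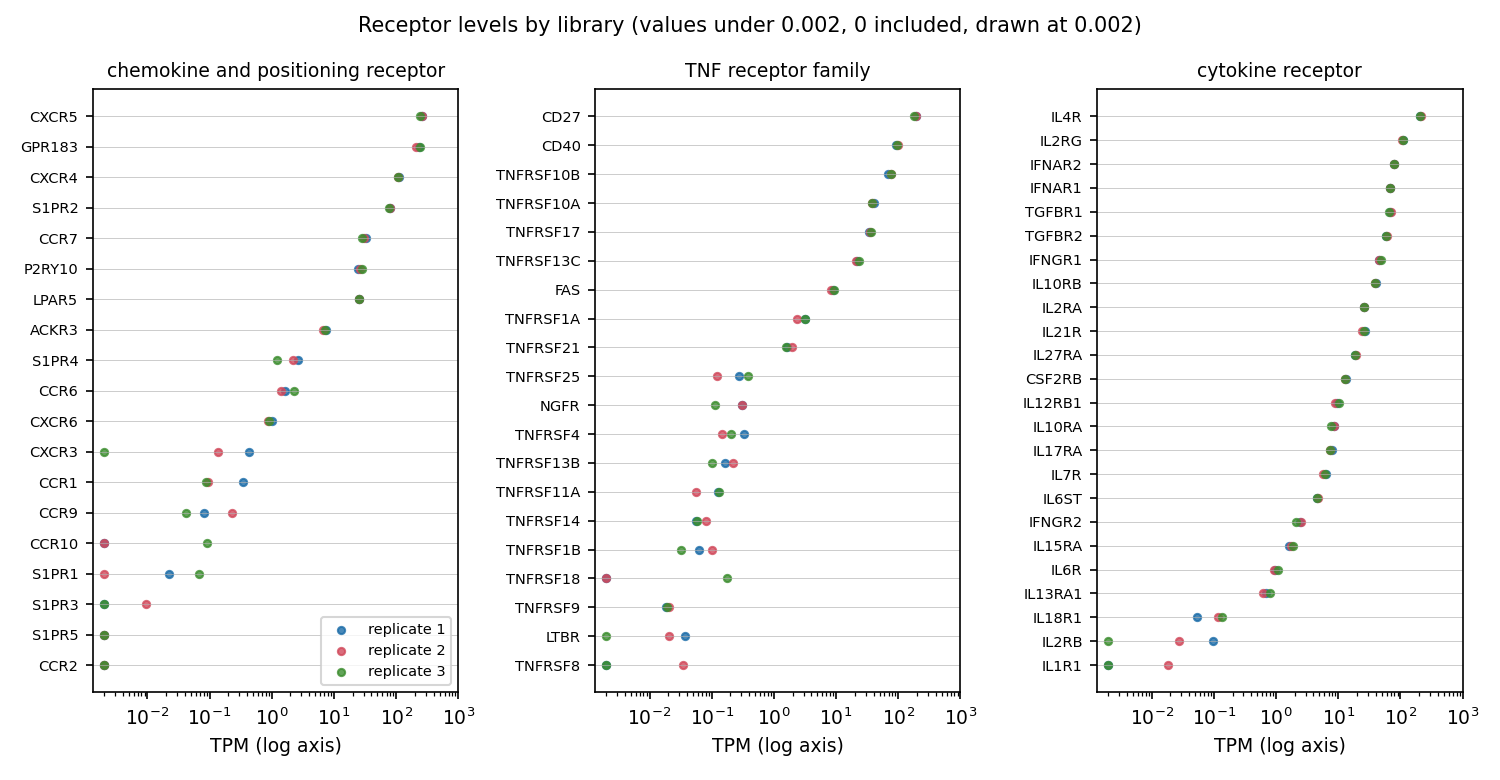
Each point is the TPM (log axis) of 1 receptor gene in 1 control library, in panels for chemokine and positioning, tumour necrosis factor and cytokine receptors, each ordered by mean level, with values under 0.002 drawn at 0.002. CXCR5, CD27 and IL4R, each over 100 TPM with nearly coinciding libraries, lead their families, and the lowest members scatter because single reads separate the libraries.

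Ligands and receptors of T cell contact were led by CD70. CD70, the ligand of CD27 (chromosome 19, 6581648 to 6591150), was at 498, 499.5 and 473 TPM. Its ratio to CD27 was 2.60 (2.56 to 2.65 over the libraries), so that both ends of this pair were present. CD83, an activation antigen of the light zone, was at 183 ± 10.7 TPM, CD86 at 148 ± 4.43 TPM and SLAMF6 at 147 ± 2.42 TPM. CD80, which binds the same receptors as CD86, was only at 2.69 ± 0.216 TPM. CD58, a ligand of the T cell antigen CD2, was at 3.18, 2.80 and 3.95 TPM. The checkpoint ligand genes CD274 and PDCD1LG2 were at 0.471 ± 0.0824 and 0.926 ± 0.288 TPM, and CD47, the signal against phagocytosis, at 82.1 ± 2.43 TPM. PDCD1 and CTLA4 were not analysed here.

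Of 16 adhesion genes 10 reached 10 TPM. ITGAL and ITGB2, the chains of LFA-1, were at 96.8 ± 4.03 and 39.7 ± 2.69 TPM. ITGA4 (75.5 ± 2.94 TPM) and ITGB1 (74.3 ± 1.55 TPM), the chains of VLA-4, overlapped each other. ITGB7, another partner of ITGA4, was at 47.5 ± 1.70 TPM, with 42.1% of its exon length shared with other annotated genes. CD44, which memory cells carry, was low at 2.84 ± 0.227 TPM. Of 9 measured Toll-like receptors 4 reached 10 TPM. TLR10 was the highest at 194, 199 and 201 TPM, and TLR9, the sensor of unmethylated DNA, was at 58.4, 59.8 and 55.9 TPM with 86.3% of its exon length shared with another annotated gene on the same strand. TLR7 was at 3.10 ± 0.236 TPM, TLR3 had 2, 0 and 1 reads and TLR8 3, 1 and 0.

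Among targets of antibodies and cell therapies the RNA order was CD79B, CD74, CD52, MS4A1, CD22, CD70, CD37, CD47, TNFRSF17 and CD38, and no neighbours among these overlapped. CD74, the invariant chain of MHC class II, was at 1131 ± 19.1 TPM, CD52 at 969 ± 22.2 TPM and CD38 at 22.7 ± 0.891 TPM. SLAMF7 (2, 16 and 4 reads), CD33 (6, 0 and 0) and TNFRSF8 (0, 1 and 0) were at the floor, and ROR1 had 0 reads. RNA levels do not give the amount of protein at the cell surface.

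Regulators of chromatin were broadly expressed, with 25 of 29 at 10 TPM or more. HDAC1 was the highest at 800.3, 789 and 787 TPM and exceeded its close relative HDAC2 by a ratio of 19.4 (19.3 to 19.6 over the libraries). The exon lengths used were 3963 bases for HDAC1 and 15461 for HDAC2, so the ratio by reads was smaller. KDM1A, which encodes LSD1 and is the gene the study's other shRNAs are directed against (chromosome 1, 23019468 to 23083689), was at 83.2, 81.6 and 84.4 TPM, or 119, 117 and 121 CPM. These are its levels in cells that carry the control shRNA. Its paralog KDM1B was lower, with a ratio of KDM1A to KDM1B of 2.19 (2.18 to 2.21 over the libraries). Of the CoREST scaffolds on which LSD1 acts, RCOR1 was at 38.3 ± 1.98 TPM, RCOR3 at 22.9 ± 0.695 TPM and RCOR2 at 11.5 ± 1.73 TPM. EZH2, the methyltransferase of Polycomb complex PRC2 and a frequent mutation target in germinal-centre lymphoma, was at 216, 201 and 221 TPM and exceeded EZH1 by a ratio of 3.46 (3.36 to 3.55 over the libraries). SUZ12 and EED, its partners, were at 119.6 ± 4.12 and 52.1 ± 0.923 TPM.

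Other chromatin genes that are often mutated in these lymphomas were at middle levels. EP300 was at 84.3 ± 2.49 TPM and its relative CREBBP at 25.1 ± 0.487 TPM, and their libraries did not overlap. KMT2D was at 52.2 ± 1.60 TPM and overlapped EED, and ARID1A was at 80.5 ± 2.05 TPM. The maintenance DNA methyltransferase gene DNMT1 (262 ± 5.96 TPM) exceeded DNMT3A (2.13 ± 0.0572 TPM) by a ratio of 123 (118 to 128 over the libraries). TET3 (10.4 ± 0.276 TPM) was above TET2 (6.11 ± 0.0987 TPM), and TET1 was at 0.832 ± 0.0385 TPM.

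All 17 proliferation genes were above 10 TPM, with a median of 226 TPM. PCNA, the sliding clamp of replication, was at 869, 889 and 892 TPM. MKI67, the antigen used to grade proliferation, was at 263, 257 and 249 TPM. MCM7 (677 ± 28.1 TPM) led the replicative helicase genes, and TOP2A (443 ± 11.4 TPM) and CDK1 (170.3 ± 2.59 TPM) are genes of late cycle and mitosis. Among D-type cyclins only CCND3 was clearly expressed, at 52.3, 49.6 and 46.9 TPM. Its ratio to CCND1 was 68.3 (61.3 to 78.1 over the libraries), and CCND2 had 7, 1 and 4 reads. Of the inhibitors, CDKN1A was at 209 ± 13.0 TPM, CDKN2C at 153 ± 1.82 TPM and CDKN2A at 112, 98.3 and 96.3 TPM, while CDKN2B, the neighbour of CDKN2A on chromosome 9, was at 2.33 ± 0.175 TPM.

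Of 16 BCL2 family genes 14 reached 10 TPM. BCL2, the antiapoptotic gene joined to the immunoglobulin locus in many germinal-centre lymphomas, was the highest at 337, 345 and 343 TPM. MCL1 followed at 278, 290.5 and 290.0 TPM, below the lowest BCL2 library. BCL2 exceeded BCL2L1 by a ratio of 5.29 (4.97 to 5.55 over the libraries), and BCL2L1 shares 43.0% of its exon length with an antisense gene. The proapoptotic genes BCL2L11 (BIM, 231 ± 5.32 TPM), PMAIP1 (NOXA, 218 ± 7.65 TPM) and BAX (199 ± 3.97 TPM) were of the same order as MCL1. BCL2A1, an NF-kB target, was at 26.7 ± 1.83 TPM, BBC3 (PUMA) at 10.0 ± 1.01 TPM and BOK at 0.371 ± 0.215 TPM.

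Interferon-stimulated genes were expressed in the control cells, for which the labels name no interferon. All 22 were above 1 TPM and 20 above 10 TPM, with a median of 61.4 TPM. ISG15, a ubiquitin-like modifier, was at 1381, 1139 and 1034 TPM. MX1, an antiviral GTPase, was at 570.0, 515 and 499 TPM, IFI44 at 476, 449 and 449 TPM and IFI6 at 477, 382 and 393 TPM. Replicate 1 was the highest library for each of these genes and for 20 of the 20 list members at 10 CPM or more, and the order of replicates 2 and 3 varied. IRF7 (2.26 ± 0.378 TPM) and OASL (8.51 ± 1.00 TPM) were the lowest. The list's summed TPM ranged over 18.3% between libraries, while that of the pan-B cell list ranged over 4.6%. Whether vector, selection or a culture difference had a part in the level or in its spread was not tested.

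The interferon-stimulated response element, to which interferon-activated factors bind, was taken as GAAA, any 2 bases and GAAA again, and was searched for on both strands in the 250 bases upstream of each RefSeq start. It was found in 9 of the 14 listed interferon-stimulated genes with a promoter in the reference table, while 2.93% of all 15765 genes with such a window held it. Where a gene has more than 1 start in the reference table, the window is that of the first listed. The matches are shown for these 9 genes for the following reason. Among lists with at least 3 members at 10 CPM or more, this one shifted most between libraries. Each is 30 bases from RefSeq on GRCh38.p14, written 5′ to 3′ in the direction of the gene. The first match in the window is in capitals, either in this form or as its reverse complement, TTTC, any 2 bases and TTTC. Any further match is left in lower case where it goes beyond the first, as in the stretches of ISG15 and IFIH1.
ISG15 (chr1:1013374-1013403, plus strand): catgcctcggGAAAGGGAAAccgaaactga
IFI6 (chr1:27672329-27672358, minus strand): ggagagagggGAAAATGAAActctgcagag
IFI44 (chr1:78649759-78649788, plus strand): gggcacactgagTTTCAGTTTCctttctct
IFI44L (chr1:78620274-78620303, plus strand): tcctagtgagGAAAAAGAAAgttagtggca
IFIT1 (chr10:89392497-89392526, plus strand): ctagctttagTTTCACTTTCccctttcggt
IFIT3 (chr10:89327831-89327860, plus strand): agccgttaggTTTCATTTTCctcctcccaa
OAS3 (chr12:112938321-112938350, plus strand): agaaagaaacGAAACTGAAAgcagggaatt
IFITM1 (chr11:313990-314019, plus strand): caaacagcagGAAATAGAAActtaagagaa
IFIH1 (chr2:162318824-162318853, minus strand): gagaattcgcTTTCCTTTTCtgtttcccgc
The genes with a match ran from ISG15 at 1185 TPM to IFIT1 at 19.3 TPM, so a match went with no one level. A match is a description of the letters and not of a bound site. In the pan-B cell list the octamer ATGCAAAT, the target of OCT1 and OCT2, was found in 1 of 15 promoters, that of VPREB3, while 1.48% of all promoters held it.
VPREB3 (chr22:23754454-23754483, minus strand): tcaataggctgATTTGCATgctctgttgtg

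The most abundant RNAs were mitochondrial, ribosomal, cytoskeletal and glycolytic. The 13 highest genes in TPM were the 13 mitochondrially encoded protein genes, which the table lists without their MT prefix, from COX2 (cytochrome oxidase subunit) at 34567, 36328 and 36579 TPM to ND2 at 5144, 5642 and 5923 TPM. Of nuclear genes RPL8, a ribosomal protein, was at 4960.3, 5082 and 4464 TPM, ACTB at 4734, 4825 and 4555 TPM and GAPDH at 4716, 4663 and 4717 TPM. These 3 overlapped in their libraries and have no fixed order. RPS6 (4009.7 ± 94.2 TPM), ACTG1 (2962 ± 92.7 TPM), the iron store gene FTL (2804 ± 48.0 TPM), the elongation factor EEF2 (2620.2 ± 140.0 TPM), RPS12 (2593 ± 55.6 TPM) and the glycolytic enzyme ENO1 (2527 ± 59.4 TPM) were also among the highest. JCHAIN was the highest B-lineage gene of those analysed, which leave out the immunoglobulin heavy and light chain genes. Its libraries overlapped those of the thymosin gene TMSB10 (2403, 2438 and 2468 TPM). Below both stood another thymosin gene, TMSB4X (2033 ± 43.2 TPM), and then CD79B, the actin bundling gene LCP1 (1696 ± 11.8 TPM) and CD79A, of which LCP1 overlapped both others.

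By reads rather than by length, ND4 had the highest mean, with 9053, 9274 and 9649 CPM. COX1 (9142, 8831 and 8934 CPM) was above ND4 in replicate 1. ACTB (4390.2, 4489 and 4238 CPM) was the highest nuclear gene, ahead of GAPDH (3705, 3675 and 3717 CPM) and ENO1 (3420.0, 3587 and 3558 CPM) in every library. The 100 genes with the highest CPM held 16.5 ± 0.0843% of counts. Reaching 25% of counts took 235 genes, 50% took 1062 and 90% took 5355. In TPM classes, 67 genes at 1000 or more, all of them coding, held 11.7% of counts. Another 1786 genes between 100 and 1000 TPM held 44.8%, and 6722 between 10 and 100 TPM held 40.6%. The 3590 genes from 1 to 10 TPM held 2.05% of counts.

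Long noncoding RNAs contributed few abundant members. MALAT1, a nuclear RNA of speckles, was at 507, 454 and 578 CPM, and NEAT1, the scaffold of paraspeckles, at 470.3, 357 and 479 CPM. Per length MALAT1 was above NEAT1, with 220.0 against 72.4 TPM. LINC00926, at 195, 198 and 215 CPM, was the highest of 500 genes named LINC, of which 92 reached 1 CPM in all libraries. The host gene of the miR-17 cluster, MIR17HG, was at 35.6, 37.9 and 41.8 CPM, and the host gene of miR-155, MIR155HG, had 6, 11 and 4 reads. Mature miRNAs are not measured by these libraries. Of lncRNA genes 11.8% reached 1 CPM in all 3 libraries, against 66.1% of protein-coding genes.

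Many genes of the table were silent. Of the 26816 genes in the table, 12223 were at 1 CPM or more in all 3 libraries, 3298 (12.3%) had 0 reads in all 3, and another 4152 had 1 to 3 reads summed. The deposited counts are labelled NoZero, which can mean that genes with no read in any column were left out. No further rule is given in the sources used here, so these shares hold for the listed genes only. Genes silent in every library may be missing from the totals. Coding genes with 0 reads numbered 1072 of 15437. By family, 1 of 62 olfactory receptors reached 1 CPM in all libraries, as did 1 of 16 keratins (KRT10, 20.5, 23.2 and 21.3 CPM), none of 11 keratin-associated proteins, 1 of 14 MAGE genes (MAGEA6, 5.03, 4.37 and 3.97 CPM) and 5 of 29 HOX genes, led by HOXC4 at 7.16, 7.69 and 8.04 CPM. Among the families of general function, 81 of 84 cytosolic ribosomal proteins, 74 of 75 mitochondrial ribosomal proteins, 35 of 38 proteasome subunits and 371 of 466 zinc finger genes named ZNF did so. The transcription factors GATA2 and TWIST1 had 0 reads.

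Expressed and silent genes were mixed along most of the chromosomes, with few exceptions. In 544 windows of 2 Mb with at least 10 coding genes, the median share at 1 CPM or more was 68.9%, and 3 windows were under 25%. Of these, 146 to 148 Mb on chromosome 5 had 2 of 10 coding genes at 1 CPM, and 14 to 16 Mb on chromosome 16 had 3 of 14. The lowest, 30 to 32 Mb on chromosome 6, had 5 of 44. It lies in the MHC region. From GABBR1 to ZBTB9 (chromosome 6, 29602238 to 33457544, bounds chosen after the values were seen) 11 of 83 coding genes reached 1 CPM, or 13.3%, with a median of 0.0666 CPM. In the stretches of the same length before and after it, 54.8% of 31 and 70.8% of 48 genes did.

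The low values covered housekeeping genes of the region as well as immune genes. HLA-B had 18, 17 and 17 reads and HLA-C 10, 16 and 16. TUBB, a beta tubulin that most dividing cells use, had 8, 10 and 4 reads, RPS18, a ribosomal protein, 36, 34 and 47 and TAP1, the peptide transporter, 0, 0 and 1. ITPR3 and BAK1, just beyond the stretch, were at 464, 442 and 457 and 28.6, 26.9 and 27.6 CPM. TAP2, inside it, was an exception at 13.8, 14.1 and 12.5 CPM. RPLP0, a ribosomal protein gene elsewhere in the genome, was at 761, 771 and 733 CPM. Low values inside the stretch are not read here as silence of its genes. The cause was not tested, since the alignments are not used here. Outside the region, B2M, the common light chain of MHC class I on chromosome 15, was at 23.5, 21.4 and 22.8 CPM, and EEF1A1 at 653, 700.1 and 647 CPM.

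Promoter sequence differed between level classes. A promoter counts as CpG-rich here when the 250 bases upstream of the start hold at least 0.6 of the CG pairs that their C and G content would give by chance pairing. Of 12394 coding genes with a promoter in the table, 70.3% were CpG-rich. The share was 37.9% for genes with 0 reads, 45.5% under 0.1 TPM, 50.9% from 0.1 to 1 TPM, 67.7% from 1 to 10, 85.1% from 10 to 100 and 87.2% from 100 to 1000 TPM. Above 1000 TPM it was 77.3% of 44 genes. By gene list, all 15 proliferation genes and all 12 housekeeping genes with a promoter were CpG-rich, as were 24 of 27 chromatin regulators, but only 5 of 15 pan-B cell genes and 4 of 14 interferon-stimulated genes. Genes are not replicates of each other, and these shares are descriptions.

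**Figure D3:**
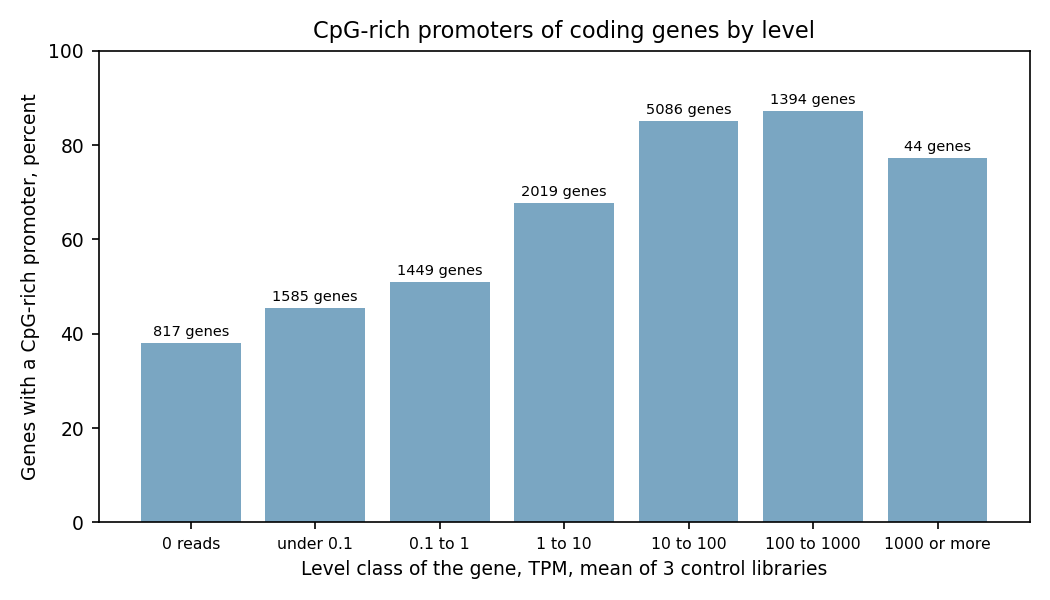
Bars give the percentage of coding genes whose 250 upstream bases are CpG-rich, by TPM class of the gene (mean of 3 control libraries), with the number of genes above each bar. The share rises from 37.9% at 0 reads to 87.2% at 100 to 1000 TPM and is 77.3% in the small top class.

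The contrast is seen in 4 promoters, shown because they pair a high and a silent gene of each kind. MCM6, a subunit of the replicative helicase, and STAP1 were both high, with 376 ± 6.10 and 449.6 ± 13.3 TPM. TAL1, a factor of blood stem cells and red cells, and FCGR3A, the Fc receptor of natural killer cells, had 0 reads. The upstream 250 bases of each, from RefSeq on GRCh38.p14 and written 5′ to 3′ in the direction of the gene, are given with each CG pair in capitals.
MCM6 (chr2:135876444-135876693, minus strand): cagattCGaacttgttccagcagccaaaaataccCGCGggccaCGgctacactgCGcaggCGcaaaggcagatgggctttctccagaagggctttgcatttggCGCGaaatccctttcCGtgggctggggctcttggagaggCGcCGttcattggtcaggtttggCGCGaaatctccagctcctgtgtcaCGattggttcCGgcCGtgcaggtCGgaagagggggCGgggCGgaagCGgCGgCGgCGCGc
STAP1 (chr4:67558477-67558726, plus strand): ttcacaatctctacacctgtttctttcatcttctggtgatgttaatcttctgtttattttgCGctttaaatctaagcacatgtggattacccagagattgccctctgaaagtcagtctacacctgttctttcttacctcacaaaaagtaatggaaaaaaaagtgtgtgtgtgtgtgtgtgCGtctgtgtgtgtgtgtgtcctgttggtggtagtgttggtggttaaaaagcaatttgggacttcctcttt
TAL1 (chr1:47232336-47232585, minus strand): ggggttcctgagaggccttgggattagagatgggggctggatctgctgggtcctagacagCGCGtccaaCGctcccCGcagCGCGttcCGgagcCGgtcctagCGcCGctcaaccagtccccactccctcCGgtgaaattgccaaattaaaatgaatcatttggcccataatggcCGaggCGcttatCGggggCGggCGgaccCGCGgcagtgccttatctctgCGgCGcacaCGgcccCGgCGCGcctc
FCGR3A (chr1:161550738-161550987, minus strand): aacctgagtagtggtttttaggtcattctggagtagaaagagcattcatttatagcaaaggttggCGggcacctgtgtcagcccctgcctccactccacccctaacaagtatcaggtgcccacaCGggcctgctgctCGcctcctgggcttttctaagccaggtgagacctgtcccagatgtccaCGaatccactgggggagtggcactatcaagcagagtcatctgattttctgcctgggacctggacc
The high gene MCM6 and the silent gene TAL1 both held 24 CG pairs. STAP1 held 2 and FCGR3A 4, although STAP1 was as high as MCM6. These 4 genes were picked for this contrast. They show only that a high and a silent gene can hold the same number of CG pairs.

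Replicates lay close together. Among 8831 genes at a mean of 10 CPM or more, the median coefficient of variation (CV) over the libraries was 3.34%, 74.1% were under 5% and 97.6% under 10%. The common biological coefficient of variation, the spread beyond counting error as edgeR estimates it, was 0.0331. Pearson's r of log2(CPM + 1) across genes was 0.998 for each pair of libraries, which describes genes and not independent replicates. No pair was a repeat of 1 library: chi-square per gene between pairs was 2.85 to 4.27, above the 1 that counting error alone would give. Spread fell with depth, from a median CV of 23.1% at 10 to 30 mean reads to 2.21% at 10000 reads or more. The counting error at these depths is 24.3% and 0.820%. Below 300 reads the median gene varied by 0.951 to 1.05 times its counting error, and above 10000 reads by 2.79 times. The SD of 3 values lies below the true SD more often than above it. A median ratio near 1 therefore does not mean counting error alone.

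**Figure D4:**
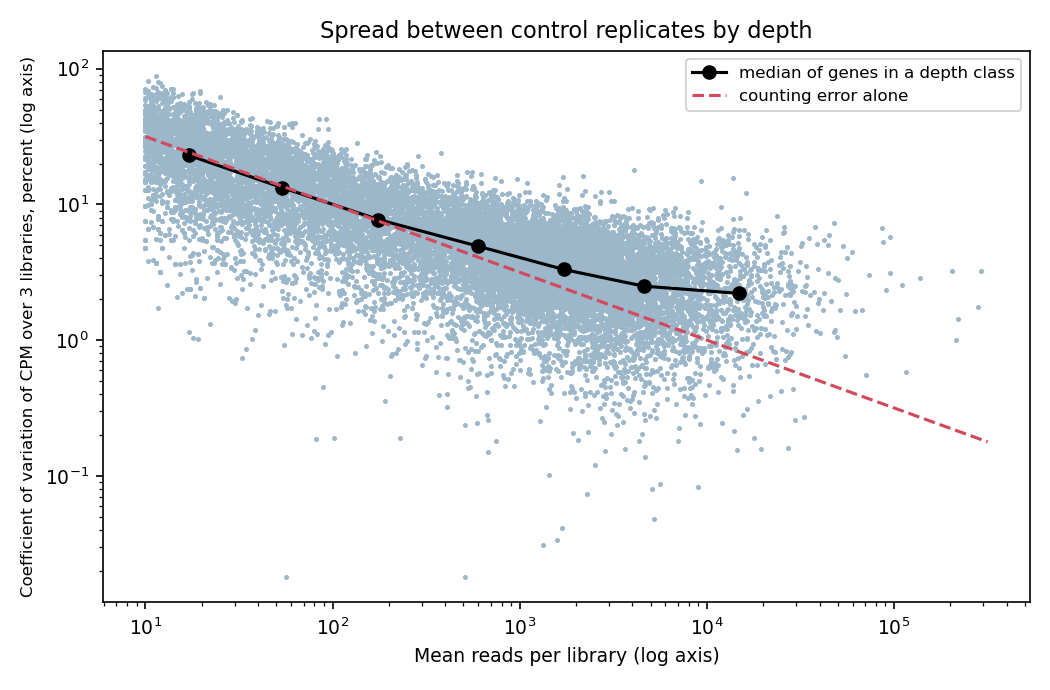
Each point is 1 gene with at least 10 mean reads, by mean reads per library and CV of CPM over the 3 control libraries in percent (both log axes), with medians of depth classes in black and counting error dashed in red. The medians lie near the counting error line from 10 to 300 reads and level off between 2.21% and 3.32% above 1000 reads.

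Few genes varied more than this. Among genes at 10 CPM or more, 17 had a CV over 15% and 1 over 20%, YJEFN3, at 11.5, 9.46 and 15.2 CPM. DDIT4, an inhibitor of mTORC1 induced by stress, was at 156, 118 and 114 CPM. LOC105377319, an uncharacterised gene model, was at 16.4, 13.8 and 19.5 CPM. TYMP, a thymidine phosphorylase that interferon induces, was at 20.9, 14.9 and 17.2 CPM. GOLGA8A (63.2, 61.9 and 81.8 CPM) was highest in replicate 3, but it belongs to a family of near-identical copies among which reads could be split. CACNB3, POMK, TSPOAP1, PGAP1 and TTC21A completed the 10 most variable genes, with CVs from 16.3% to 16.7%. At the other end, SYNJ2 (16.2, 16.2 and 16.2 CPM), IRGQ, NAMPT, CCDC12 and XRN2 had the smallest CVs, from 0.018% to 0.048%.

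Of the lists with at least 3 members at 10 CPM or more, that of interferon-stimulated genes shifted most between replicates. The median deviation of the 20 members at 10 CPM or more from their own mean was 0.11 in replicate 1, -0.06 in replicate 2 and -0.05 in replicate 3 on the log2 scale, and their median CV was 6.93%. In the other 22 lists with at least 3 such members the median deviation farthest from 0 was -0.04, that of the tumour necrosis factor receptors in replicate 1, and for B-lineage transcription factors the median CV was 2.62%. No library was an extreme in most genes: replicate 3 was the highest in 38.7% of genes at 10 CPM or more, replicate 1 in 32.8% and replicate 2 in 28.5%.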

How the data were processed

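RNA of OCI-Ly1 cells carrying a control shRNA was analysed in 3 of 9 libraries. The deposited values are raw counts of reads by gene symbol, whole numbers in every column used. Per the submitters' processing notes, the tools were featureCounts 1.5.2, STAR 2.5.2 and CASAVA 1.8.2, on hg38. Whether reads were counted by strand, and with which annotation, is not given in the sources used here. Another 6 columns were not used: the labels do not tell which numbered LSD1 shRNA a column name stands for, and no shRNA comparison is made here. The 3 libraries held 29506767 to 32835510 reads, so 1 read is a small fraction of 1 CPM.

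CPM and TPM were computed from the counts with library size alone (pandas 2.3.3, Python 3.11.15). Exon lengths, as the union of a gene's exons, come from GENCODE 29 for 19368 of 26816 symbols, 18927 matched by name, 428 by an older symbol and 13 as mitochondrially encoded genes; these genes held 99.2% of counts. Positions and promoters come from RefSeq on GRCh38.p14. The spread was estimated with edgeR 4.0.16 in R 4.3.3 with TMM and filterByExpr, after a test on simulated data. There is 1 group, so no test and no p-value is given.

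The 32 lists were written from general knowledge, and the members and lists were chosen with earlier results of these data known. Named are the 25 genes highest in TPM and the 10 highest in CPM, in each list the 4 highest members, those that define it and those with 0 reads, members of paralog families, and the 10 most and 5 least variable genes at 10 CPM or more. Some genes that this rule names are not reported here. Noncoding RNAs, family leaders such as COL5A1, and genes of the MHC region were named after their values were seen. Alternatives were other thresholds, scalings, lengths, filters and libraries left out in turn.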

Additional observations from a re-analysis of the deposited data

How the results depend on the processing

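Genes at 1 CPM or more in all libraries numbered 12223 and ranged from 12307 to 12369 with 1 library left out; thresholds of 0.5 and 5 CPM, 2 scalings and a library size without mitochondrial genes kept the count within 1.5 times. Genes with 0 reads numbered 3298, 7450 with up to 3 reads allowed, and 4203 to 4363 over 2 libraries. The share of the top 100 genes was 16.5%, 13.0% without mitochondrial genes, 14.4% ranked by TPM, and 16.5 to 16.6% with a library left out. The common biological coefficient of variation was 0.0331, and 0.0277 to 0.0374 with a library left out, lowest without replicate 3. The pan-B cell median of 169 TPM became 160.1 with the longest transcript as length, 187 in CPM, 219 without mitochondrial genes in the total (chosen after seeing the data), and 167 to 170.1 with a library left out. The T cell median stayed between 0.224 and 0.310 TPM with a library left out. The CpG-rich share at 10 TPM or more was 85.5%, 68.8% with a threshold of 0.75, 85.3% in CPM classes, 90.4% with the richest start of each gene (chosen after seeing the data), and 85.4% with a library left out. Of 534 named genes none moved beyond its spread with TMM. With a library size without mitochondrial genes 282 did, by at most 5.54% among those at 1 CPM or more. With 1 of 3 libraries left out, a mean cannot move beyond the SD of the 3, so that setting cannot decide this. The largest shifts at 1 CPM or more were 14.3, 12.5 and 14.7% without replicates 1, 2 and 3. Using the longest transcript changed 38 of 398 named genes at 1 TPM or more by over 1.5 times, all upward. No paired analysis was possible because there is 1 group and the results come from no test. Depth limits genes near the floor, where single reads set the order.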
